A study of Mus musculus with 188 samples.

Results

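Cell cycle gene expression was examined in 188 microarrays of mouse aorta, by way of 37 genes of DNA replication and mitosis. Each gene was read from its brightest probe set, meaning the one with the highest mean over all arrays among the probe sets annotated with 1 gene symbol. Of the 37 genes, 35 had such a probe set, out of 11725 genes named on the array. These were all 13 genes of S phase and 22 of the 24 genes of mitosis, while Ccnb1 and Cdca8 were not listed in the annotation and were not analysed here. Of the 35 genes, 18 had 1 probe set and 17 had several.

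The mice were wild-type males, 16 weeks old and fed chow, and the RNA came from the aorta. They belonged to 94 strains, of which 28 were inbred, 28 were AXB or BXA recombinants of A/J and C57BL/6J, 28 were BXD recombinants of C57BL/6J and DBA/2J, and 10 were BXH recombinants of C57BL/6J and C3H/HeJ. A pair of BXD lines carried a mutation in their names, BXD24/TyJ-Cep290<rd16>/J and BXD29-Tlr4<lps-2J>/J. There were 79 strains with 2 arrays, 3 with 3, 3 with 4 and 9 with 1. Whether the replicate arrays of one strain hold different mice is not stated in the labels, so p-values here reflect only array-to-array spread, which could be technical. The exception is the comparison of recombinant families, whose test rests on the spread among strain means. All levels are log2 values, in which 1 unit is a doubling. Array medians over all probe sets lay between 4.55 and 4.88. Smooth muscle is the main cell of the aortic wall, and its marker Acta2 had a median of 12.48 in arrays with a low thymic index, the mean of Dntt and Rag1, and 12.43 in those with a high one. Medians were 9.44 and 9.14 for Myh11, 8.99 and 8.55 for Cnn1, 7.44 and 7.05 for Lmod1 and 6.11 and 5.81 for Myocd, and the mean of the 5 markers ran from 6.71 to 9.81 over single arrays. The array C57L/J replicate 1 stood apart, with a mean correlation of 0.819 with arrays of other strains against a median of 0.957 over all arrays.

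A dividing cell first copies its DNA in S phase and then parts the copies in mitosis, and most of the genes concerned are transcribed only when a cell is about to use their products. S phase genes are driven largely by E2F factors, and mitotic genes largely by complexes that read CCAAT boxes and a short element called the CHR. In a healthy adult aorta few smooth muscle or endothelial cells divide, whereas the thymus, which lies next to the aortic arch, holds fast-dividing immature T cells.

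Promoter sequences are shown as background to the grouping of the genes by phase. Whether these elements bear on the differences between arrays was not tested. RefSeq promoter windows of GRCm38.p6, each running from 250 bases before to 50 bases after a start site, were found for 31 of the 37 genes. The words searched on both strands were CCAAT for the CCAAT box, TTTGAA for the CHR, and for E2F the word TTCCCGC, the variant TTGGCGC, the variant TTCGCGC and the variant TTGCCGC. The windows of the 4 genes with the largest difference between array types (given further on) among those with a window are printed 5′ to 3′, with matches to these words or their complements in capitals. They lie at chr7:135716330-135716629 on the minus strand for Mki67, chr11:117848987-117849286 on the plus strand for Birc5, chr2:164769679-164769978 on the plus strand for Ube2c and chr11:99024140-99024439 on the minus strand for Top2a.
Mki67: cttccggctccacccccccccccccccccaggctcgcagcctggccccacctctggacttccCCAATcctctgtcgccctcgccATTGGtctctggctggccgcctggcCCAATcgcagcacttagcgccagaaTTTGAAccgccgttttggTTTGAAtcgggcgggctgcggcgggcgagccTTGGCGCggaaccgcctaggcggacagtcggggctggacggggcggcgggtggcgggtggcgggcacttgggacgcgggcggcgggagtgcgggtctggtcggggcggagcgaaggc
Birc5: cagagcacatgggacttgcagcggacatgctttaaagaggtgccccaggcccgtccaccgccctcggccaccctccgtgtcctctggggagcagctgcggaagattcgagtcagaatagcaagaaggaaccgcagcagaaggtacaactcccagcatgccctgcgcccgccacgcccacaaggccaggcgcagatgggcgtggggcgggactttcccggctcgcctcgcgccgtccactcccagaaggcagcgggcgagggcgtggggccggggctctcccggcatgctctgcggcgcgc
Ube2c: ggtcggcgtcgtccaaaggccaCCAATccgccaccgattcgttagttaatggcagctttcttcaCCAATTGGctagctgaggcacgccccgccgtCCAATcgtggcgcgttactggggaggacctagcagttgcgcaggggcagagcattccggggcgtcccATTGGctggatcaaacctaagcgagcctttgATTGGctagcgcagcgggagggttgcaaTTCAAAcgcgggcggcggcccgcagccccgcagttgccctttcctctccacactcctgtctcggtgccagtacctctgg
Top2a: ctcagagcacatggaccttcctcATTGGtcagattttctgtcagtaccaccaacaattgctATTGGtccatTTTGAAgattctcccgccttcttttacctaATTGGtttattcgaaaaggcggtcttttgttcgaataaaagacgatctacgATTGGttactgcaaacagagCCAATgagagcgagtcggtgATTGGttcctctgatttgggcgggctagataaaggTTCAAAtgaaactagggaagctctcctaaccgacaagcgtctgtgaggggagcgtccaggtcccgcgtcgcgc
The Ube2c window held 6 CCAAT matches, of which 2 overlap as a palindrome, and 1 CHR match. The Top2a window held 6 CCAAT and 2 CHR matches, and that of Mki67 held 3 CCAAT, 2 CHR and 1 E2F match. The Birc5 window held none of the words. Of the 20 windows of mitotic genes, 90% had a CCAAT box, 75% a CHR and 15.0% an E2F word. Of the 13 windows of S phase genes, 69.2% had a CCAAT box, 7.69% a CHR and 69.2% an E2F word. Over all 32851 windows the shares were 37.4%, 17.9% and 9.57% in the same order. A CCAAT box and a CHR stood together in 75% of the mitotic windows, 7.69% of the S phase windows and 6.95% of all windows. A match describes letters only and does not show that a factor binds there.

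Thymic transcripts divided the arrays, and the cell cycle genes are therefore described separately on both sides of that division. The thymic index of an array was the mean of Dntt and Rag1, which encode enzymes of antigen receptor gene assembly in immature lymphocytes. It was below 4 in 144 arrays, between 2.83 and 3.96 with a median of 3.02, and 4 or more in 44 arrays, between 4.15 and 10.93 with a median of 8.44. These are called low and high arrays. There were 22 high arrays in each of the ranges of sample numbers in the labels, 925 to 1038 and 1067 to 1168. High arrays occurred in 38 strains, and 28 of these strains also had a low array. In whole tissue, fewer cells of a type and less RNA per cell cannot be told apart.

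In low arrays most of the genes read near the bottom of the scale. Probe sets of 8 transcripts of female, retinal or germ cells, which male aorta should lack, had medians up to 3.93 in low arrays and single values up to 4.60. Probe sets differ in brightness, so this range is only a rough guide to background. The median of 10 of the 35 genes exceeded 3.93 in low arrays, namely Rrm1, Mcm4, Mcm6, Mcm7, Pcna, Tyms, Mki67, Cdc20, Cenpa and Ube2c. In high arrays that number was 26. The mean over the 35 genes ran from 3.76 to 4.69 in low arrays, with a median of 3.95. It ran from 3.87 to 7.16 in high arrays, with a median of 4.92.

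Among the S phase genes, those that supply DNA building blocks were higher in high arrays at the median, with overlap between array types. Rrm2, a subunit of ribonucleotide reductase, ran from 3.22 through a median of 3.63 to 4.66 in low arrays and from 3.33 through 4.88 to 9.21 in high arrays. Of the 44 high arrays, 26 exceeded every low array for this gene. Rrm1, its partner subunit, ran from 4.43 through 5.39 to 6.21 in low arrays and from 4.83 through 5.92 to 7.89 in high arrays. Tyms, thymidylate synthase, had medians of 4.21 and 4.89, and its highest values were 4.85 and 7.72.

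The genes Mcm2 to Mcm7 encode the subunits of the helicase that opens the double strand. Mcm6 ran from 3.69 through 5.81 to 6.85 in low arrays and from 4.14 through 6.90 to 9.58 in high arrays, and its wide range in low arrays is taken up below. Low and high medians were 3.56 and 4.73 for Mcm2, 3.77 and 4.07 for Mcm3, 4.65 and 5.54 for Mcm4, 3.51 and 4.54 for Mcm5 and 4.92 and 5.75 for Mcm7. Pcna, the clamp that holds the polymerase on DNA, had medians of 9.24 and 9.79, and its low arrays reached 10.12. Cdc6, which loads the helicase, had medians of 3.19 and 3.44, Chek1, a checkpoint kinase, 3.21 and 3.31, and E2f1 3.79 and 3.82. For E2f1 no high array exceeded the highest low array.

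The mitotic genes differed among themselves, with the fitted difference running from -0.01 for Kif23, part of the machinery that divides the cell, to 2.90 for Mki67. Mki67, the proliferation antigen that coats mitotic chromosomes, ran from 3.62 through 4.12 to 6.19 in low arrays and from 3.89 through 7.20 to 10.23 in high arrays. Top2a, which untangles the sister DNA strands, ran from 2.75 through 3.51 to 4.28 and from 3.08 through 5.52 to 8.60, so that 36 of the 44 high arrays lay above every low array. Ccna2, Ccnb2 and Cdk1, the cyclins and kinase that start mitosis, had low medians of 3.65, 3.44 and 3.87 and high medians of 5.91, 4.88 and 5.51. Ube2c and Cdc20, which mark mitotic proteins for destruction, had low medians of 3.99 and 4.65 and high medians of 6.43 and 6.16. Birc5, Aurkb and Aurka act in building the spindle or in attaching chromosomes to it. Their low medians were 3.22, 3.61 and 3.76 and their high medians 5.36, 3.94 and 5.09. The spindle motors and bundlers Kif11, Kif20a, Kif23, Prc1, Nusap1 and Tpx2 had low medians of 3.29, 3.19, 3.42, 3.54, 3.26 and 3.16. Their high medians were 3.88, 3.52, 3.45, 4.60, 4.70 and 3.97. The centromere proteins Cenpa and Cenpe had medians of 4.70 and 2.78 in low and 5.75 and 2.94 in high arrays. Plk1 and the checkpoint kinases Bub1 and Bub1b had low medians of 3.80, 3.66 and 3.39 and high medians of 4.67, 3.63 and 4.83. Foxm1, a factor that drives mitotic transcription, had medians of 3.24 and 3.33.

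**Figure D1:**
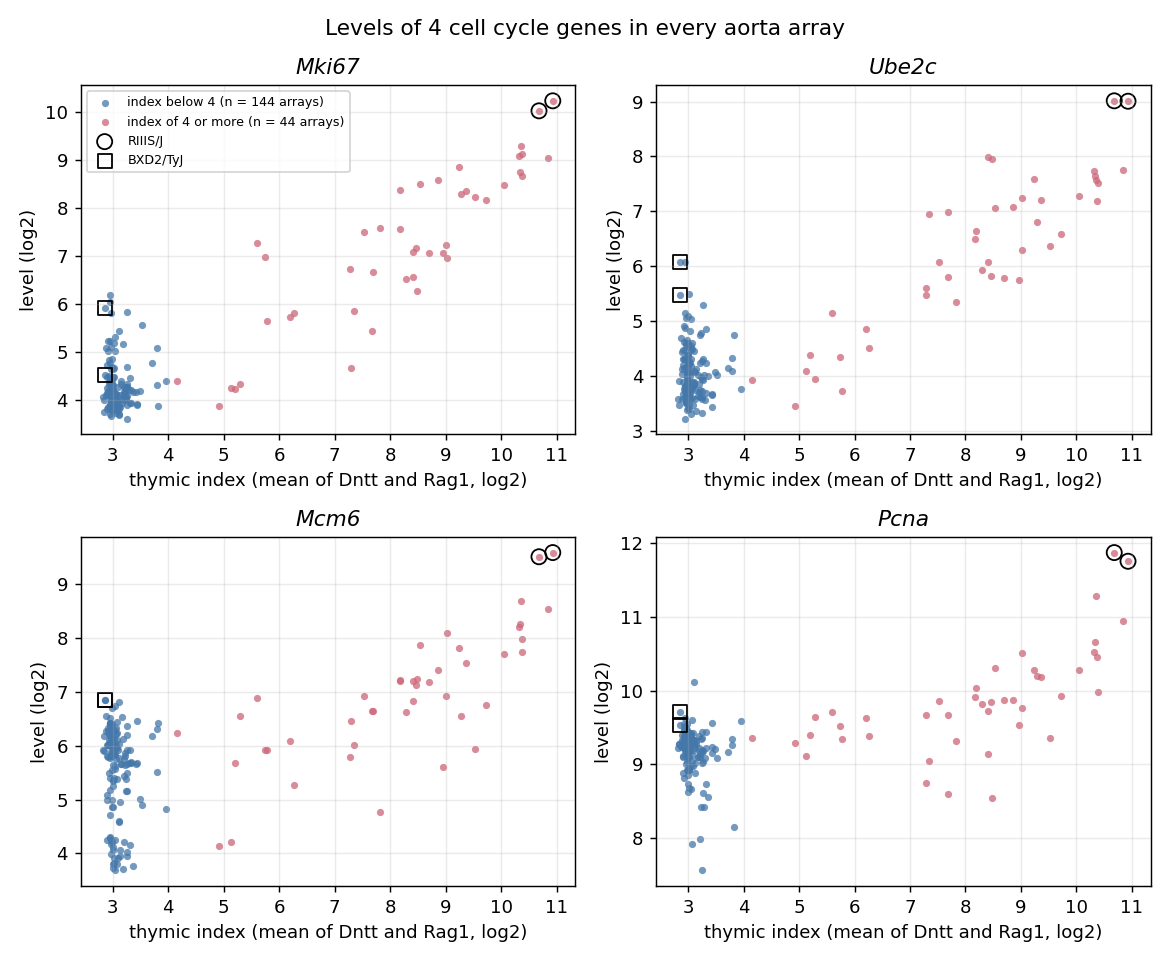
Levels of Mki67, Ube2c, Mcm6 and Pcna (log2, vertical axes) against the thymic index (log2, horizontal axes), 1 point for each of 188 arrays, with the 144 low arrays in blue and the 44 high arrays in red. RIIIS/J arrays (circles) hold the top right corner in each panel, the BXD2/TyJ arrays (squares) are among the highest low arrays for Ube2c and Mcm6, and Mcm6 spreads from 3.69 to 6.85 within the low arrays.

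Within strains, the cell cycle genes were higher in high arrays as a group. The test was limma's moderated test with strain as a block, fitted to 177 arrays of 84 strains. Only the 28 strains with both kinds of array (28 high and 31 low arrays) carry the contrast, while the others add to the estimate of spread. At a Benjamini-Hochberg adjusted p below 0.05 it called 30 of the 35 genes higher and 0 lower. Over all 22327 probe sets, 12.6% were called higher and 11.4% lower. An unadjusted p below 0.05 was found for 31 of the 35 genes and for 7942 of all probe sets. The genes and this contrast were chosen with earlier results of these data known, so the choice of genes was not independent of it. Dntt and Rag1, which define the contrast, are transcripts of immature lymphocytes. Whether the cells that carry them were dividing was not tested. The median difference over the 35 genes was 1.04 on the log2 scale, against -0.03 over all probe sets. It was 0.85 for S phase genes, of which 11 of 13 rose, and 1.35 for mitotic genes, of which 19 of 22 rose. The probe set of each gene was picked by its mean over all arrays, high arrays included. Such a pick can favour probe sets that rise in high arrays, and none was made for the median over all probe sets.

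The largest difference was that of Mki67, which was higher by 2.90 (SE 0.21) or 7.45-fold with a 95% interval of 5.60 to 9.91 (adjusted p = 2.39e-22, limma). It was higher in the high array in 27 of 28 strains, the exception being BXA2/PgnJ (4.34 against 4.47). Strain values ran from 3.89 to 9.12 in the high and from 3.80 to 5.81 in the low arrays of these strains. Birc5 was higher by 2.28 (SE 0.16), in 28 of 28 strains. Ube2c was higher by 2.20 (SE 0.18), in 25 of 28 strains, and Ccna2 by 2.17 (SE 0.18), in 26 of 28. The strain with the largest difference was BXH9/TyJ for 19 of the 35 genes, AXB2/PgnJ for 5, AXB19/PgnJ for 3, AXB10/PgnJ for 2 and another strain for each of the other 6. The high arrays of these 4 had thymic indices of 10.84, 8.41, 10.38 and 10.34. The strain with the smallest difference was BXA2/PgnJ (index 5.28) for 8 genes, FVB/NJ (4.92, the lowest) for 6, BXA14/PgnJ (5.77) for 5 and BXA25/PgnJ (8.86) for 4. The S phase genes with the largest differences were Rrm2 at 1.59 (SE 0.14), Mcm6 at 1.48 (SE 0.15) and Mcm2 at 1.46 (SE 0.14).

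The probe sets of 5 genes were not called. Kif23 differed by -0.01 (95% interval -0.11 to 0.08), E2f1 by 0.05 (-0.05 to 0.15), Chek1 by 0.07 (-0.03 to 0.17), Bub1 by 0.07 (-0.04 to 0.18) and Aurkb by 0.29 (0.06 to 0.52, adjusted p = 0.0505). A dimmer probe set of each of 3 of them was called higher, by 0.68 for Bub1, 0.44 for Chek1 and 0.25 for Aurkb. Another 2 of Chek1 differed by -0.12 and -0.01 and were not called, so the probe sets of this gene and of Bub1 disagree. Among the 30 called genes, 11 of 16 dimmer probe sets were also called higher and 5 were not called. The latter were 1 each of Top2a (-0.04 against 2.03 for the brightest), Nusap1 (-0.08 against 1.82) and Foxm1 (-0.04 against 0.18) and 2 of Tyms (-0.08 and 0.05 against 0.86). The second probe sets of E2f1 and Kif23 differed by 0.06 and 0.05 and were not called either. The smallest called differences were those of Cenpe, 0.11 (SE 0.04), and Foxm1, 0.18 (SE 0.04). Within the lower range of sample numbers 28 of the 35 genes were called beside 12.8% of all probe sets in either direction, and within the upper range 29 beside 5.85%.

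**Figure D2:**
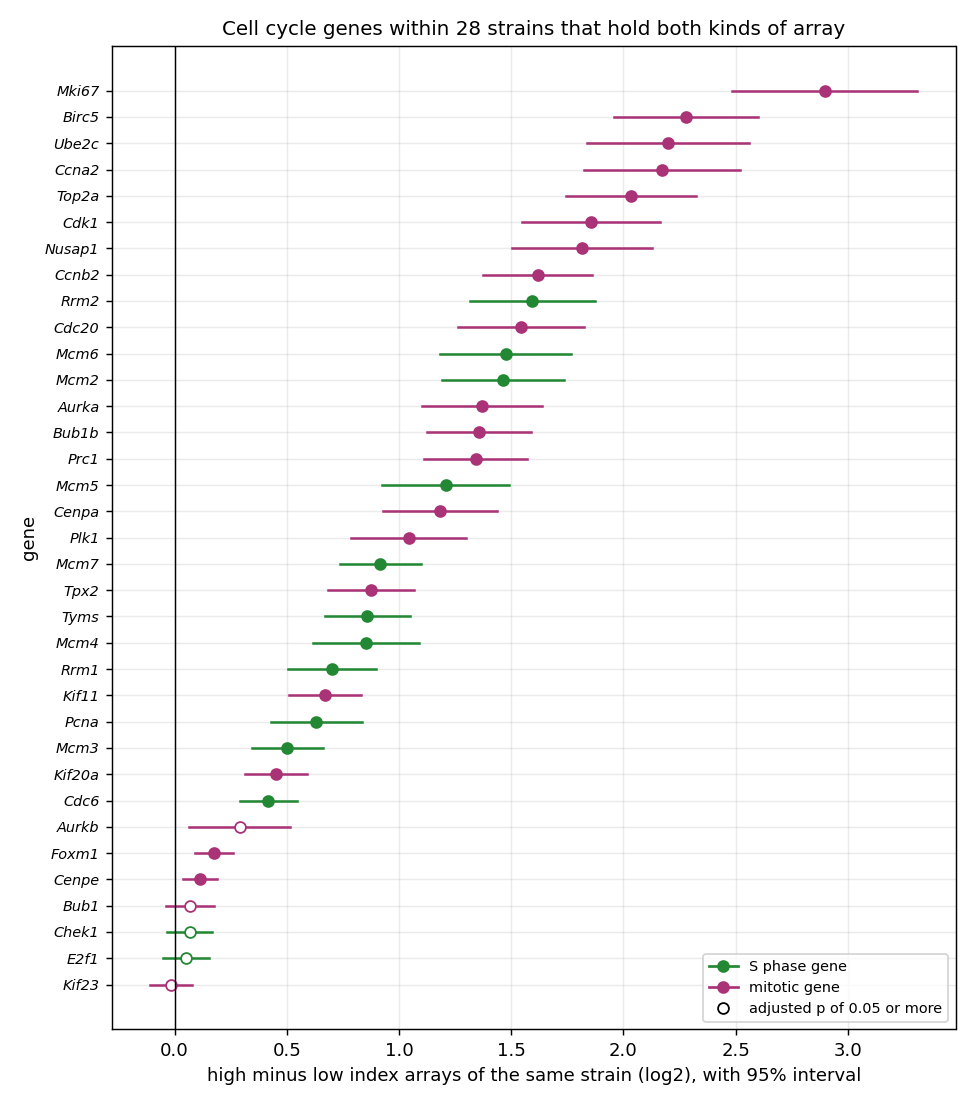
Difference between high and low arrays of the same strain (log2, horizontal axis) for each of the 35 genes, with 95% intervals from limma, S phase genes in green and mitotic genes in purple, and open circles where the adjusted p was 0.05 or more. Mitotic genes hold the top 8 places, from 2.90 for Mki67 to 1.62 for Ccnb2, and the 5 open circles lie between -0.01 and 0.29.

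Other cell cycle genes were grouped by role for the same contrast, in which 12.6% of all probe sets were called higher and 11.4% lower. Of 28 further S phase genes measured, 23 rose, led by Cdt1 at 1.78 and Uhrf1 at 1.65, which license origins and copy DNA methylation. Of 33 further mitotic genes, 29 rose, led by Stmn1 at 2.38 and Smc4 at 2.05, which act on microtubules and on chromosome compaction. Of 9 genes of the G1 cyclins and their partners, 3 rose (Ccnd3 at 1.14 and Cdk2 at 0.64 led) and 1 fell (E2f5 by 0.25). Of 12 inhibitors of the cycle, 5 rose (Cdkn2d at 1.03 and Rbl1 at 0.98 led) and 1 fell (Cdkn1c by 0.35). Ccnd1, the D-type cyclin of many adherent cells, differed by -0.26 and was not called.

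Markers of several cell types moved with the same contrast. All 14 thymocyte markers rose, with Cd3d at 4.45 and Satb1 at 4.34, as did 4 of 5 markers of thymic epithelium, with Prss16 at 4.60 and Ccl25 at 4.14. The summed level of the thymocyte list, as its mean, ran from 3.53 to 5.08 in low and from 4.24 to 9.35 in high arrays. Of 11 squamous epithelium markers 5 fell, with Krt4 by 2.24 and Krt13 by 2.16, and all 4 skeletal muscle markers fell, with Tnnc2 by 2.61. Fibroblast markers fell in 4 of 5 cases and endothelial ones in 3 of 6, while no smooth muscle or B cell marker was called. Cd68 (0.50), of 6 macrophage markers, and Ngp (0.71), of 9 bone marrow myeloid markers, were the only ones of their lists to rise. The part of any of these in the differences of the cell cycle genes was not tested. The fit was repeated with the squamous and B cell indices (the means of the 11 squamous and 8 B cell markers) as covariates. No call among the 35 genes was lost or gained. The share of all probe sets called in that fit is not given here, so its count of genes has no background beside it.

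Over all arrays, strains differed in 25 of the 35 genes (limma's moderated F test over 177 arrays of 84 strains, adjusted p below 0.05), where 46.1% of all probe sets were called. The 25 were 9 S phase and 16 mitotic genes. The largest F statistics were those of Mcm6 (2.91, adjusted p = 5.18e-06), Kif20a (2.91, 5.26e-06), Cdc6 (2.58, 5.44e-05) and Tyms (2.34, 0.000288). The smallest were those of Bub1, E2f1 and Chek1, with adjusted p of 0.533, 0.349 and 0.215. Within the lower range of sample numbers 17 genes were called beside 28.5% of all probe sets, and within the upper range 1, Mcm6, beside 12.9%.

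Most of these calls were lost without RIIIS/J. The mean of this strain over the 35 genes was 7.12, against 5.21 for SJL/J and 5.12 for C57L/J, which came next, and 3.81 for FVB/NJ, 3.83 for LP/J and 3.84 for 129X1/SvJ at the lower end. Mki67 read 10.02 and 10.23 in the 2 RIIIS/J arrays, Rrm2 9.21 and 8.94, and Kif20a, a motor of cell division, 6.25 and 5.74, the highest 2 values of all 188 arrays for each gene. Without this strain 2 of the 35 genes were called, Mcm6 (adjusted p = 0.00025) and Cenpe (0.0382), with 36.6% of all probe sets. This was the lowest count with any single strain left out, and the highest was 29, without AXB2/PgnJ. Cenpe read near background, with medians of 2.78 in low and 2.94 in high arrays. The RIIIS/J arrays had thymic indices of 10.68 and 10.93, and the means of their thymocyte markers, 9.14 and 9.35, were the highest 2 of all arrays. The means of their endothelial markers, 5.91 and 5.75 against a median of 7.18, were the lowest 2. The strain had no low array, so strain and thymic index cannot be told apart in it.

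With the thymic index as a covariate 19 genes were called, beside 43.5% of all probe sets. Mcm6 led again (F = 5.23, adjusted p = 1.65e-12), followed by Cdc6 (2.85), Rrm2 (2.81) and Kif20a (2.62). The smallest F statistics were those of Plk1, Chek1 and Aurkb. Without RIIIS/J 7 were called, namely Mcm6, Mcm4, Cenpa, Mcm7, Cenpe, Mcm3 and Tyms, beside 39.4% of all probe sets. Within the lower range of sample numbers 19 were called beside 27.6% of all probe sets, and within the upper range 2, Mcm6 and Mcm4, beside 13.1%.

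**Figure D3:**
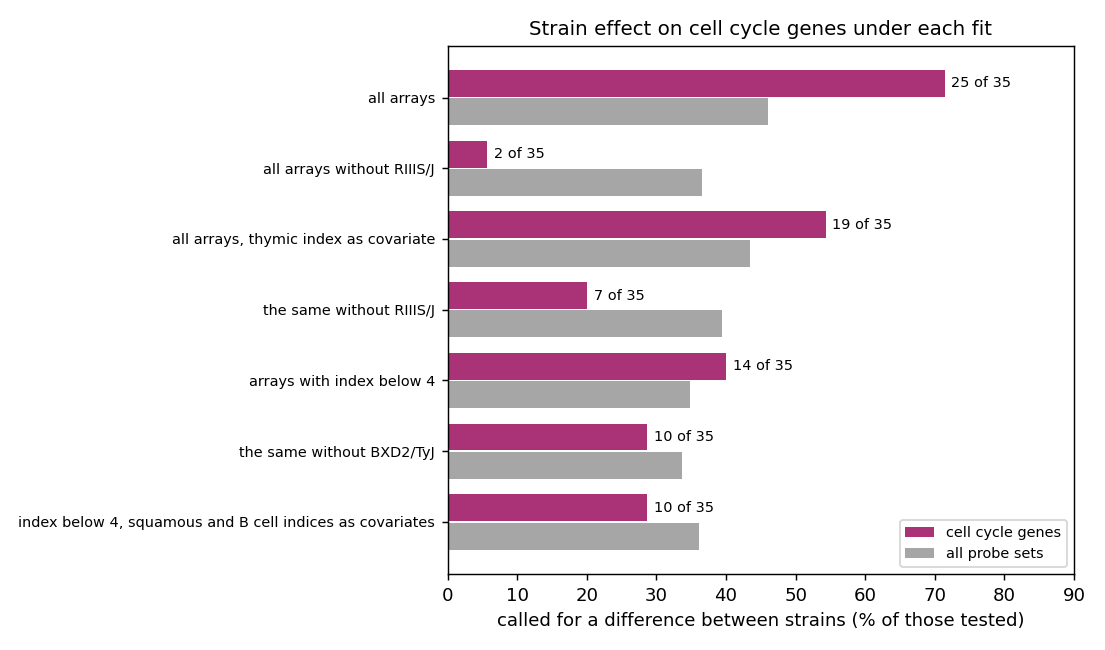
Share of the 35 cell cycle genes (purple) and of all probe sets (grey) called for a difference between strains, in percent of those tested, under 7 fits, with the number of genes beside each bar. The purple bar falls from 25 genes to 2 without RIIIS/J, while the grey one moves from 46.1% to 36.6%.

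When the low arrays alone were compared (111 arrays of 52 strains with at least 2 of them), strains differed in 14 of the 35 genes, beside 34.8% of all probe sets. The 14 were 6 S phase genes, Mcm6, Rrm2, Mcm4, Mcm7, Tyms and Mcm3, and 8 mitotic genes, Cdk1, Kif11, Birc5, Cenpe, Ccna2, Ube2c, Mki67 and Cenpa. Of these, Rrm2, Mcm3, Cdk1, Kif11, Birc5, Cenpe and Ccna2 had low-array medians below 3.93, the rough guide to background given above. The share of genes called, 40.0%, was close to that of all probe sets. Mcm6 had the largest F statistic (4.76, adjusted p = 2.29e-07), followed by Rrm2 (3.17, 0.00015), Mcm4 (2.91, 0.000467) and Mcm7 (2.83, 0.00066). The smallest were those of Aurkb, Chek1 and Bub1, each with an adjusted p above 0.9. The lower range of sample numbers alone called 13 genes beside 25.3% of all probe sets, and the upper range 2, Mcm6 and Mcm4, beside 8.16%.

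Leaving the high arrays out narrowed the spread of these genes. The median over the 35 genes of the standard deviation within strains was 0.64 over all arrays and 0.23 over low arrays, and that among strains 0.32 and 0.11. Over all probe sets the medians were 0.30 and 0.27 within and 0.15 and 0.13 among strains. The intraclass correlation, the share of variance that lies among strains, had a median of 0.21 over the genes in all arrays and 0.19 in low arrays, where all probe sets gave 0.18 and 0.19. It was highest in low arrays for Mcm6, at 0.63 (95% interval 0.44 to 0.76), Rrm2, at 0.52 (0.31 to 0.69), and Mcm7, at 0.50 (0.28 to 0.67).

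BXD2/TyJ had the highest mean over the 35 genes in low arrays, 4.55, followed by AXB19a/PgnJ at 4.22 and BXD42/TyJ at 4.20. FVB/NJ was lowest at 3.76, then BXD20/TyJ at 3.82 and LP/J at 3.83. AXB19a/PgnJ, FVB/NJ and BXD20/TyJ had 1 low array each, so their places have no replicate check, and the others had 2. The 2 BXD2/TyJ arrays read 5.88 and 5.01 for Cdk1, where the median of strain means was 3.91, 5.52 and 4.70 for Ccna2, with a median of 3.67, and 6.08 and 5.48 for Ube2c. They also had B cell indices of 6.31 and 6.53 against a median of 4.51 in low arrays, and squamous indices of 7.71 and 3.61 against 3.71. Without BXD2/TyJ 10 genes were called beside 33.7% of all probe sets, and Ccna2 (adjusted p = 0.383), Cenpa (0.166), Ube2c (0.162) and Birc5 (0.0935) were lost. With the squamous and B cell indices as covariates 10 were called beside 36.1% of all probe sets, and Mki67 (0.376), Ccna2 (0.111), Ube2c (0.0808) and Cenpa (0.0753) were lost.

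The S phase genes called in low arrays ordered the strains differently. Rrm2 was highest in BXD2/TyJ (4.45), AXB19a/PgnJ (4.16) and BXD42/TyJ (4.15) and lowest in DBA/2J (3.28), BXA4/PgnJ (3.36) and BXD38/TyJ (3.37). Mcm4 was highest in AXB1/PgnJ (5.83 ± 0.14, SD, n = 2) and lowest in BTBR T<+> tf/J (3.76 ± 0.72, SD, n = 2). Mcm7, in contrast, was highest in BTBR T<+> tf/J (5.73) and next in AXB1/PgnJ (5.72), with BXD36/TyJ lowest (4.36). Mcm3 was highest in BTBR T<+> tf/J (4.60) and BXD2/TyJ (4.59) and lowest in BXD33/TyJ (3.46). Tyms was lowest in AXB1/PgnJ (3.67) and highest in AXB19/PgnJ (4.68). AXB19a/PgnJ, BXD33/TyJ and AXB19/PgnJ had 1 low array each and were not in the F test on low arrays. Thus BTBR T<+> tf/J lay at opposite ends for Mcm4 on one side and Mcm3 and Mcm7 on the other, although their products form 1 complex. Without this strain 5228 probe sets were called over low arrays, against 7773 with it. That was the lowest count with any single strain left out. Whether the probes of these genes match the sequence of every strain equally was not tested.

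Mcm6 varied most among strains in low arrays. Strain levels ran from 3.69 in FVB/NJ, 3.72 in BXD20/TyJ and 3.77 in BXD33/TyJ to 6.46 in C58/J, 6.51 in BXA2/PgnJ and 6.85 in BXD2/TyJ. Of these, BXD2/TyJ is a mean of 2 arrays (SD 0.0093) and the other 5 are single low arrays. C57BL/6J read 6.11, 5.68 and 6.07, and DBA/2J read 4.31 and 3.80. A/J, with a mean of 5.38, and C3H/HeJ, with 6.03, lay nearer to C57BL/6J. DBA/2J and C57BL/6J had only low arrays. The BXD strains ranged from 3.72 to 6.85, with 12 of 26 strain levels below 5. Below 5 also lay 8 of 23 inbred strains, 1 of 10 BXH strains and 0 of 25 AXB and BXA strains. The limit of 5 was chosen after the values were seen. BXD5/TyJ (3.99 ± 0.10, SD, n = 2) and BXD9/TyJ (6.33 ± 0.10, SD, n = 2) show how closely arrays of a strain could agree.

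Not every strain held together. The 4 BXD19/TyJ arrays read 4.20, 3.81, 5.87 and 6.00 for Mcm6, with B cell indices of 5.02, 4.46, 4.86 and 5.41. Their sample numbers were 1148, 1149, 1157 and 1158 in the same order, so the lower 2 values had the earlier numbers. What set these arrays of BXD19/TyJ apart was not tested. The 2 NOD/ShiLtJ arrays read 6.82 and 4.59, with B cell indices of 5.48 and 4.05. The 2 BXD40/TyJ arrays read 6.45 and 4.86, with B cell indices of 5.54 and 4.64. In the last 2 strains the array with the higher B cell index had the higher Mcm6.

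**Figure D4:**
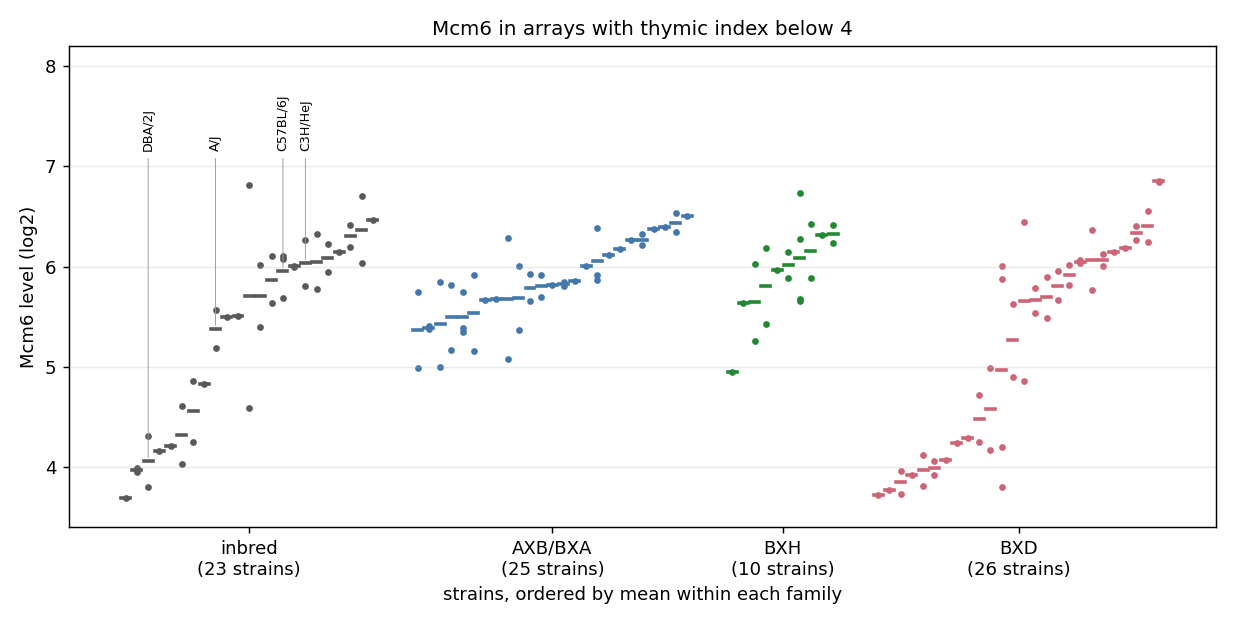
Mcm6 level (log2, vertical axis) in the low arrays of 84 strains, ordered by mean within each family, with 1 point per array, a bar at each strain mean and the parents of the recombinant families labelled; BXD32/TyJ is included. BXD strains span 3.72 to 6.85, and DBA/2J lies near the lower end at a mean of 4.06 where C57BL/6J has 5.96.

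In the strain fit of low arrays, Mcm6 was lower in DBA/2J than in C57BL/6J by 1.90 on the log2 scale (95% interval -2.78 to -1.02 for the difference, adjusted p = 0.0131, limma), that is, at 0.27 of its level. It was the only 1 of the 35 genes called, where 0.331% of all probe sets were called lower and 0.358% higher. This contrast was added after the Mcm6 values were seen, and so is a description of the parents. Whether the probes of this set match the sequence of every strain equally was not tested, and a mismatch would change what this difference and the spread among BXD strains measure. The difference was -2.16 without DBA/2J replicate 1 (adjusted p = 0.0619), -1.64 without replicate 2 (0.402), -1.82 without C57BL/6J replicate 1 (0.0752) and -1.84 within the lower range of sample numbers (0.0887), and the call was lost in each of these. Without C57BL/6J replicate 2, or without its replicate 3, the call was kept. The upper range held no DBA/2J array. The next largest differences were those of Pcna (0.49) and Cenpa (-0.44), which were not called.

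Across the recombinant families, on 1 mean per strain, Mcm6 was again the only gene of the 35 called (limma's F test, adjusted p = 0.043), beside 1.32% of all probe sets. Its family means were 5.88 ± 0.35 (SD, n = 25 strains) for AXB and BXA, 5.12 ± 1.02 (SD, n = 25 strains) for BXD and 5.89 ± 0.41 (SD, n = 10 strains) for BXH. The call was lost when BXD32/TyJ, left out for an unexplained suffix in its description, was included, with a limit of 4.5 on the thymic index, within either range of sample numbers and without any 1 family. For the strain effect over low arrays, by contrast, Mcm6 was called within the lower (adjusted p = 0.00223) and the upper range (0.000219). Mcm6 has a single probe set on the array.

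Within strains and low arrays, a set of mitotic genes moved with squamous epithelium markers. A limma fit had slopes on the thymic, squamous and B cell indices and strain as a block. It called 8 of the 35 genes higher with the squamous index and 0 lower, beside 4.97% and 3.51% of all probe sets. All 8 were mitotic. For the same slope 12 of the 35 genes and 4636 of the 22327 probe sets had an unadjusted p below 0.05. Per unit of the index, Cdc20 rose by 0.17 (SE 0.03, adjusted p = 7.07e-06), Mki67 by 0.15 (SE 0.03, 0.000992), Cdk1 by 0.12 (SE 0.03, 0.00145) and Birc5 by 0.09 (SE 0.02, 0.000124), with Ccna2, Top2a, Prc1 and Ccnb2 next. The lowest slopes were those of Bub1 (-0.04), Cenpa (-0.03) and Aurkb (-0.03), none called. The squamous index of low arrays ran from 3.37 to 9.05 with a median of 3.71. In the 3 low arrays with the highest index, BXD36/TyJ replicate 1 (9.05), BXD13/TyJ replicate 2 (9.01) and BXA26/PgnJ replicate 2 (9.0), Mki67 read 5.24, 5.56 and 5.02, where the median of low arrays was 4.12. In the next, PL/J replicate 1, whose index of 9.0 was nearly the same, it read 4.19. Of the 8 low arrays with the highest index, Mki67 was highest in AXB19b/PgnJ replicate 1, at 6.19.

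Skeletal muscle markers rose with the same slope in 4 of 4 cases, led by Myh1 (0.95) and Tnnc2 (0.94), and their part in the cell cycle slopes was not tested. Thymocyte markers rose in 3 of 14 cases, endothelial ones fell in 3 of 6, and no smooth muscle marker was called. S100a9, of the myeloid list, rose by 0.46, and Cidea, of the brown adipocyte list, fell by 0.05. Of the further cell cycle genes, 8 of 33 mitotic ones rose, with Cks2 at 0.18 and Ckap2 at 0.16. Of 28 S phase ones, 2 rose, Fen1 and Tk1, and 1 fell, Gmnn by 0.12. Ccnd1 rose by 0.20 and Cdkn2c fell by 0.08. Within the lower range of sample numbers 1 of the 35 genes, Cdc20, was called beside 2.84% of all probe sets in either direction, and within the upper range 5 were, Cdc20, Mki67, Cdk1, Birc5 and Prc1, beside 2.6%. The slope of Mki67 was 0.01 (adjusted p = 0.965) in the lower and 0.22 (0.000198) in the upper range, and that of Cdc20 0.22 and 0.19. Those of Prc1 were 0.06 and 0.13, of Ccnb2 0.04 and 0.08, of Top2a 0.06 and 0.10, of Cdk1 0.15 and 0.16, of Birc5 0.11 and 0.08 and of Ccna2 0.11 and 0.08. The difference between the ranges was not tested.

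The B cell index went with fewer of the genes. Of the 35, 3 were called higher and 0 lower per unit of it, beside 4.5% and 2.03% of all probe sets (limma). They were Mcm6 at 0.47 (SE 0.09, adjusted p = 0.000133), Mcm5 at 0.33 (SE 0.06, 0.0002) and Mki67 at 0.27 (SE 0.08, 0.0366). In the same test 12 of the 35 genes and 4717 of the 22327 probe sets had an unadjusted p below 0.05. Ube2c had the next largest slope, 0.21, and Cenpa (-0.06), Prc1 (-0.05) and Foxm1 (-0.04) the lowest, none called. Without AXB19b/PgnJ 2 genes were called. Of the ranges of sample numbers, the lower called 1 gene, Mcm6, beside 1.51% of all probe sets in either direction, and the upper 0 beside 1.64%. The slopes in the lower and the upper range were 0.52 and 0.43 for Mcm6, 0.29 and 0.29 for Mcm5 and 0.24 and 0.15 for Mki67. Macrophage markers rose with the same index in 4 of 6 cases (Cd68 at 0.74 and Csf1r at 0.52 led) and thymocyte markers in 11 of 14 (Cd2 at 1.06 and Cd3d at 0.99 led), and their part was not tested. Of the further cell cycle genes, 4 S phase ones rose, led by Cdt1 (0.73) and Fen1 (0.24), Gmnn fell by 0.32, and 3 mitotic ones rose, led by Cdc25b (0.26) and Racgap1 (0.15). Ccnd1 rose by 0.32 and Btg1 by 0.19.

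**Figure D5:**
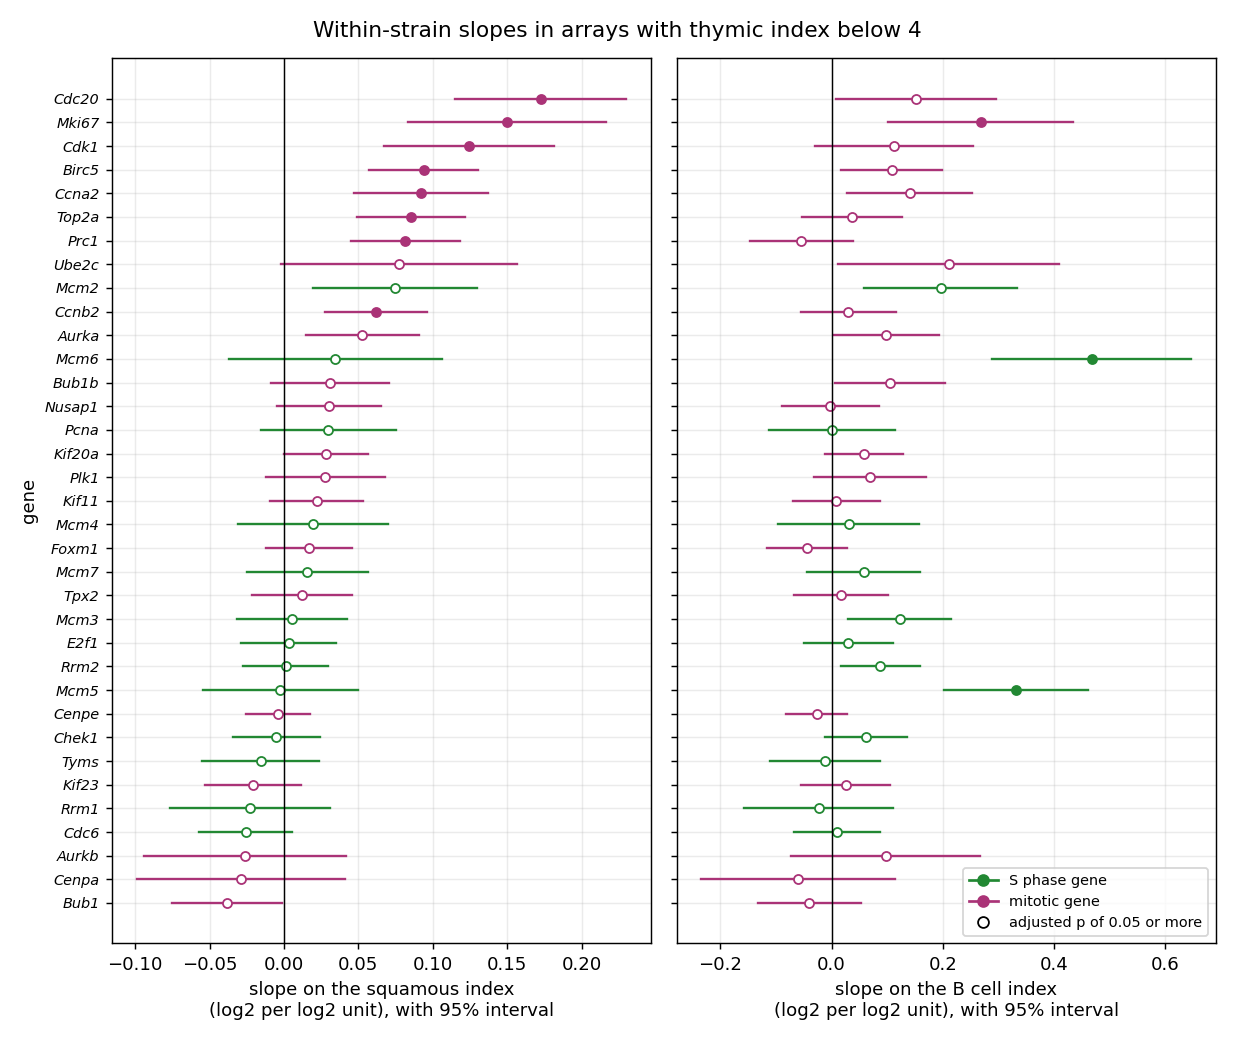
Slopes of the 35 genes on the squamous index (left) and the B cell index (right) within strains over low arrays, in log2 per log2 unit of the index, with 95% intervals from limma, S phase genes in green, mitotic genes in purple, and open circles where the adjusted p was 0.05 or more. Cdc20, Mki67 and Cdk1 have the largest squamous slopes (0.17, 0.15 and 0.12), and Mcm6 and Mcm5 the largest B cell slopes (0.47 and 0.33), with Mki67 filled in both panels.

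The thymic index itself still varied a little among low arrays. Its slope was called higher for Mcm5 (0.77) and E2f1 (0.43) and lower for Mcm6 (-0.98) and Pcna (-0.87), beside 13.6% and 16.2% of all probe sets. Without BXH2/TyJ, whose arrays include an index of 3.82, 0 of the 35 genes and 12 probe sets in all were called, against 6661 with it (limma, adjusted p below 0.05 in both). With a limit of 3.5 on the index, 0 of the 35 genes were called by limma and 8 probe sets in all. With that strain in, 14 of the 35 genes had an unadjusted p below 0.05 (limma), as had 9579 of the 22327 probe sets.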

How the data were processed

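The deposited values are in log2, with a single log2 expression value for each probe set in each array. The authors' steps named in the submitters' processing notes are GCOS and RMA, the latter a method of background adjustment, quantile normalisation and summary over the probes of a set, and neither versions nor a genome build are named there. Such processing can pull low values together, so differences of dim genes may be understated. Of 22416 probe sets, 89 controls were left out and 22327 tested. The platform annotation gave 17783 probe sets 1 symbol, 284 several and 4260 none, and 17759 matched a GRCm38.p6 gene table by Entrez ID.

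Tests used limma 3.58.1 in R 4.3.3 (eBayes with trend, Benjamini-Hochberg over all 22327 probe sets, threshold 0.05), and were tested on simulated data. Figures used pandas 2.3.3 and matplotlib 3.10.9, and reading of files data.table, version 1.17.8. Groups are the strains in the labels. Strain effects took strains with 2 or more arrays, without BXD32/TyJ. The thymic index limit was 4. Most strains had 2 arrays, and precision is limited accordingly. No arrays were merged: the most similar pair (r = 0.994) still differed by up to 4.67.

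All 37 genes were named. For each comparison the text gives the 4 with the largest effect and those not called or with the smallest effect, and for other lists the 2 with the largest effect each way. The genes, lists and tests were chosen with earlier results of these data known. Alternatives changed the probe set per gene, a filter on dim probe sets, the variance prior, the limit, the covariates, the sample numbers used and the strains left out. The fits that left out a strain from the covariate fit or the slopes, the contrast of DBA/2J with C57BL/6J, the fit without C57L/J replicate 1 and the low-array fit with covariates were added after seeing the data.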

Additional observations from a re-analysis of the deposited data

Results flagged for a closer look

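In 3 strains with 4 arrays each, the 35 genes gave 105 sets of 4 values in which 1 array could stand far from the other 3, and 10 did. Chance gives this in about 1 of 20 sets. Of the 10, 8 were the same array, AXB19b/PgnJ replicate 4, the only high array among these strains, with a thymic index of 9.36. It read 6.73 for Rrm2 where the other 3 arrays lay between 3.79 and 3.92, 6.02 for Mcm7 (4.77 to 4.96), 5.66 for Tyms (4.28 to 4.47) and 4.03 for Cdc6 (3.12 to 3.22). It read 5.10 for Bub1b (3.56 to 3.71), 5.32 for Plk1 (4.04 to 4.10), 6.48 for Cdc20 (4.70 to 4.93) and 5.73 for Prc1 (3.58 to 3.85). The others were BXH4/TyJ replicate 4, at 2.86 for Cenpe (2.70 to 2.71), and BXH4/TyJ replicate 2, at 3.96 for Kif23 (3.28 to 3.39), both low arrays.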

How the results depend on the processing

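The counts of cell cycle genes called were within 1.5 times those reported when the variance prior was changed and when C57L/J replicate 1 was left out. No paired analysis was possible because replicate numbers only follow the order of accession and pair no arrays. A filter on probe sets with a mean of 5 or more left 5 of the genes. Of these, 4, 3 and 4 were called for the strain effects over all arrays, over low arrays and with the thymic covariate. For high against low 5 were called, and for the thymic, squamous and B cell slopes 2, 1 and 1. The shares of the filtered probe sets called are not given here, so these counts have no background beside them. In high against low arrays this filter called 3245 probe sets and a limit of 3.5 called 3263. With numbers up to 1038 the probe sets called were 6370 for the strain effect over all arrays, 6152 with the thymic covariate, 2855 for high against low, 2 for the thymic, 633 for the squamous and 338 for the B cell slope and 2 for families. With numbers from 1067 they were 2883, 2921, 1307, 1, 581, 366 and 133, and 1821 for low arrays. The cell cycle genes called in the lower and the upper range were 0 and 0 for the thymic slope, 1 and 5 for the squamous, 1 and 0 for the B cell slope and 0 and 0 for families, and in the upper range 1, 2 and 2 for the strain effects over all arrays, over low arrays and with the covariate. For DBA/2J against C57BL/6J 0 were called in the lower range. The mean over all probe sets of a gene gave 7 genes for the thymic and 7 for the B cell slope. Including BXD32/TyJ gave 5 genes for the B cell slope, 4036 probe sets for the thymic slope and 0 genes for families, and a limit of 4.5 gave 0 for families. For these counts of 7, 7 and 5 genes the share of all probe sets called is not given here. A limit of 3.5 gave 8 probe sets and 0 genes for the thymic slope and 954 probe sets for the B cell slope. Leaving out each strain in turn gave 8165 to 11236 probe sets and 2 to 29 genes over all arrays, 5228 to 9144 and 10 to 15 over low arrays, 8084 to 10979 and 7 to 24 with the covariate, and 4409 to 5565 and 30 to 31 for high against low. For the thymic slope it gave 12 to 7444 and 0 to 7, for the squamous slope 1516 to 2137 and 8 to 10, and for the B cell slope 849 to 2024 and 2 to 4. Leaving out each family gave 35 to 250 and 0 to 0 (295 without C57L/J replicate 1, an array that this fit does not hold), and leaving out each array of the 2 parents 69 to 157 and 0 to 1. No call changed direction in these settings, and the cause of the other shifts was not tested.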
